A study of Mus musculus with 10 samples.

Results

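The genes described here were annotated in GENCODE as processed transcripts, a class for transcribed genes that the annotation does not give a coding sequence, and were expressed in the pressure-loaded left ventricle of the mouse. Of 780 genes of this class in the deposited table, 576 were above 0 in a sample. Of these, 80 had a mean of at least 1 FPKM (fragments scaled to the length of the transcript and to the mapped fragments of the library) over all 10 samples. Leaving out 11 named host genes, imprinted RNAs and opposite-strand genes left 69 genes, out of 1122 genes and assembled loci that reached the same level and 14771 in all. The 69 were thus chosen by their mean FPKM over all samples, and their levels are given as a description. Among them, 7 carried symbols of the kind given to coding genes, namely Tmem134, Ptpmt1, Ifi30, Zswim6, Spata5l1, Tctn2 and Trerf1. The other 62 comprised 32 Rik clones, 19 Gm gene models, 7 genes named by an accession and 4 named non-coding RNAs, Firre, Crnde, Zfas1 and Dleu2.

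All samples were left ventricles of C57BL/6 mice collected 6 weeks after surgery for transverse aortic constriction (TAC), in which a band around the aorta makes the ventricle pump against pressure. There were 6 wild-type (WT) and 4 Sirt5 knockout (KO) samples, and the series asks about a role of the mitochondrial deacylase SIRT5 in hypertrophy. The design text describes male mice 5 weeks old, names both a conventional CRISPR-Cas9 knockout and a tamoxifen-inducible Cre-ERT2 system, with 1 mg tamoxifen a day for 10 days and a wait of 4 weeks before TAC, without assigning either to a group. Neither Sirt5 nor any of 18 coding marker genes of heart cells was in the table, so neither genotype nor tissue could be checked on them. The cardiomyocyte long non-coding RNA Mhrt was detected in all 10 samples, at 0.835 to 5.78 FPKM.

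An annotated gene counts as coding when one of its transcript models holds an open reading frame that annotators accept as translated. Where the genome sequence holds a base that breaks such a frame, annotators may bridge it with a gap in the transcript model, far shorter than a spliced intron. Genes of the class also include long non-coding RNAs such as Firre, which organises chromatin in the nucleus, and Zfas1, which hosts small nucleolar RNAs.

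The 7 genes with coding-like symbols differed from the rest in their annotation. RefSeq, another annotation on the same genome build (GRCm38.p6), listed 7 of the 7 as protein coding and 0 of the other 62, of which 47 were long non-coding RNAs and 15 were not found by symbol. The 7 were chosen by a form of symbol given to coding genes, so this difference was largely set by the choice. Among 192 other annotated genes that reached the same level, 2 were protein coding in RefSeq. In GENCODE M21, 0 of the 69 genes had a transcript of protein-coding type. The longest frame from an ATG to a stop codon had a median of 438 codons (range 180 to 1225) in the 7 genes, 92 codons (28 to 645) in the other 62 and 76.5 codons in the 192 genes outside the group.

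The feature shared by most of the coding-like genes was a gap of 1 or 2 bases between neighbouring exons of a transcript model. Such a model, counting gaps of up to 5 bases, existed for 6 of the 7 (85.71%), all but Spata5l1. It existed for 3 of the other 62 (4.839%), for 1 of 192 annotated genes of the same level that were not among the 69 (0.5208%) and for 71 of 13420 annotated genes in the table (0.5291%). In 6 of 6 genes the gapped model held the gene's longest frame, and the gap lay inside that frame. When the skipped bases were put back, which shifts any frame that runs through them, the longest frame became shorter in 6 of 6. In the 3 gapped genes with other symbols the gap also lay inside the frame of the gapped model and its filling shortened that frame in 3 of 3, and the gapped model held the gene's longest frame in 2 of 3. The stretches below are shown because the skipped bases decide the length of the longest frame within the gapped model. They are taken from the GENCODE transcripts on GRCm38, read 5′ to 3′ along the gene, with 15 bases on either side in lower case and the skipped bases in capitals.
Tmem134 (chr19:4126041-4126041, plus strand): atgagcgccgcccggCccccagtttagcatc
Ptpmt1 (chr2:90917703-90917704, minus strand): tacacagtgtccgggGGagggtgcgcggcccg
Ifi30 (chr8:70764764-70764764, minus strand): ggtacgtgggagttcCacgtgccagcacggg
Zswim6 (chr13:107889578-107889578, minus strand): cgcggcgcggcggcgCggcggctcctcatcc
Tctn2 (chr5:124624335-124624335, plus strand): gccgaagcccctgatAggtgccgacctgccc
Trerf1 (chr17:47353919-47353919, plus strand): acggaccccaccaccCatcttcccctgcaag

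The stretch of Tmem134 opens with the start codon of its frame, and the skipped base followed codon 5. With that base in place the longest frame of Tmem134-212 was 96 codons, against 180 without it. In Zswim6 the skipped base followed codon 157, and the frame went from 1207 to 914 codons when it was put back. In Ptpmt1 the skipped bases followed codon 94 and the frame went from 260 to 139 codons. The frame of Ifi30-201 went from 248 to 149 codons, that of Tctn2-201 from 699 to 567 and that of Trerf1-201 from 1225 to 1122. Models of the same genes without a gap held frames of their own. Among the models most like the gapped ones, these were 1113 codons in Trerf1-204, 865 in Zswim6-204, 567 in Tctn2-207 and 211 in Ptpmt1-202. They were 149 codons in Ifi30-202 and 96 in Tmem134-215.

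**Figure D1:**
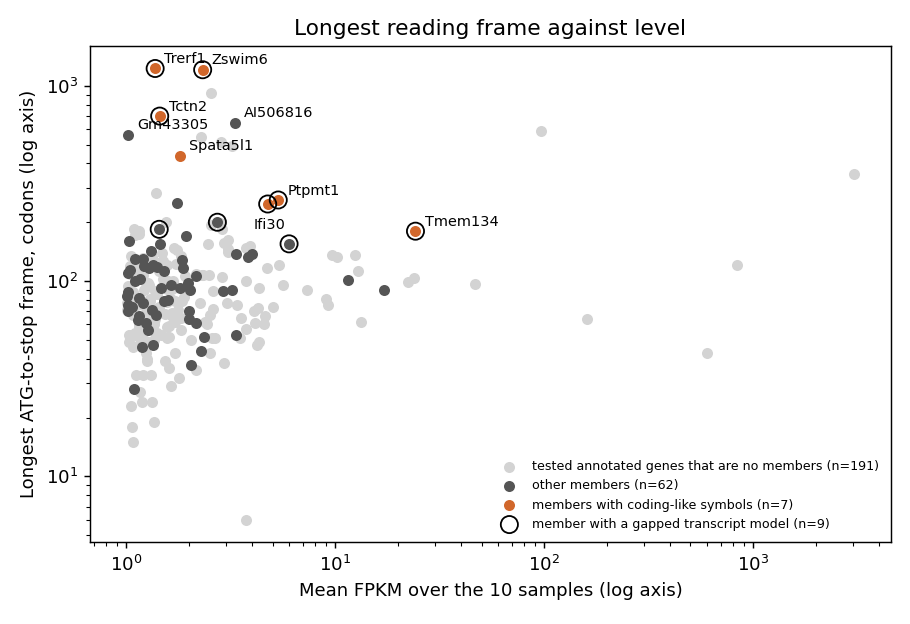
Longest ATG-to-stop frame in codons (vertical, log axis) against mean FPKM over the 10 samples (horizontal, log axis) for tested annotated genes with such a frame. Orange points are the 7 genes with coding-like symbols, dark points the other 62 and light points genes outside the group. Rings mark those of the 69 genes with a gapped transcript model, and the 1 gene outside the group with such a model is not ringed. The orange points lie at 180 to 1225 codons, and 6 of the 7 are ringed.

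Spata5l1, a gene of the AAA ATPase family, had no gapped model. Its GENCODE gene spanned 2306 bases (chr2:122630625-122632930), against 5854 bases in RefSeq, which starts at the same base. Its frame of 438 codons lay in Spata5l1-202, whose share of the gene's FPKM ran from 9.90% to 64.9% between samples. The other 6 coding-like genes had similar spans in both annotations except Ptpmt1, with 9543 bases in GENCODE and 7338 in RefSeq.

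Long frames were not confined to the coding-like symbols. Frames of at least 200 codons were present in 6 of the 7 coding-like genes, in 4 of the other 62 and in 8 of the 192 annotated genes outside the group. The 4 were AI506816 with 645 codons, Gm43305 with 561, A730017L22Rik with 252 and 6530402F18Rik with 200. RefSeq listed these 4 as long non-coding RNAs. Their frames were not compared with known proteins or repeat elements, so length alone does not make them like the frames of the 7. No evidence of translation was measured in this assay.

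In position, the other 62 lay near the share of all annotated genes of that level, of which 142 of 261 (54.4%) overlapped a coding gene. The 261 include the 69 and pool unlike classes. An overlap was present in 85.7% of 56 antisense genes and in 10% of 80 long intergenic non-coding RNA genes, so nearness to the pooled share depends on the mix. Of the 7 coding-like genes, 1 overlapped a coding gene, Ptpmt1, of which 45.0% of exon bases lay opposite Kbtbd4. Of the other 62, 36 (58.1%) overlapped a coding gene, 11 on its own strand and 28 on the opposite strand, with 3 counted in both. No source used here states if the read strand entered the quantification, and fragments of such pairs may not have been told apart.

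The 7 coding-like genes had a median level of 2.32 FPKM and the other 62 a median of 1.44 FPKM, against 1.65 FPKM over all 1122 tested genes and loci. The coefficient of variation over the 10 samples had a median of 27.9% in the 7, 37.4% in the 62 and 32.2% over all tested. From the size of single-fragment steps in the table, the libraries were estimated at 22700000 to 29800000 mapped fragments, which gave the median gene of the 69 about 50.8 fragments per sample. The 69 genes together held 1.46% to 2.33% of the FPKM in the table in 9 samples and 4.01% in WT replicate 3, where Gm49708 alone stood at 162 FPKM. At the threshold, Gm45338 (1.00 FPKM), Gm14636 (1.02) and AA465934 (1.02) were just inside, and 1810032O08Rik (0.990 FPKM), E230016M11Rik (0.979) and 2500002B13Rik (0.967) just outside.

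Between genotypes, limma on log2(FPKM + 1) called 0 of the 69 genes at a Benjamini-Hochberg adjusted p below 0.05, where 0.178% of all 1122 tested were called. At an unadjusted p below 0.05, 5 of the 69 passed, where 11.7% of all tested did. Of these 5, 4 were higher in KO (background 3.12%) and 1 was lower (background 8.56%). The count of 5 became 1 without WT replicate 5 and 2 without WT replicate 6. The log2 fold change was above 0 for 43 of the 69, where 44.5% of all tested were above 0. With each sample scaled to a common sum it was above 0 for 31 of the 69, where 27.5% of all tested were, and with median-of-ratios scaling for 43, where 50.7% were. In the reported fit all 7 coding-like genes were above 0, with a median of 0.27 on the log2(FPKM + 1) scale. Of the other 62, 36 were above 0, with a median of 0.048, and the median over all tested was -0.028. These values rested in part on a single library: without KO replicate 5, 5 of the 7 were above 0, with a median of 0.17. With the common sum, 5 of the 7 and 26 of the 62 were above 0, and Ptpmt1 and Trerf1 were lower in KO under both settings. That scaling lowered the median of all tested genes by 0.11, and relative to it the 7 had a median of 0.28 and the 62 a median of 0.090.

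**Figure D2:**
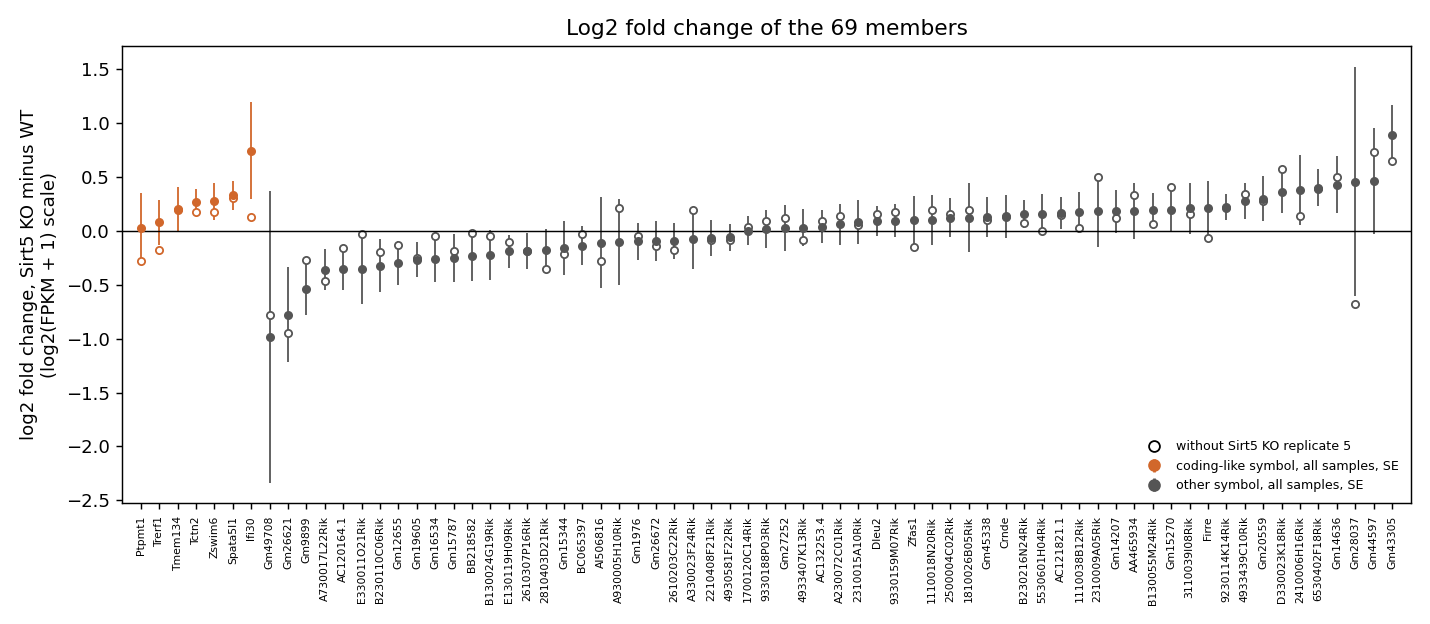
Log2 fold change, Sirt5 KO minus WT on the log2(FPKM + 1) scale (vertical), for each of the 69 genes, with the 7 coding-like symbols in orange at the left; bars are SE of the limma fit over 10 samples, and open circles leave out KO replicate 5. The 7 orange points lie between 0.027 and 0.74 with all samples, and Ptpmt1 and Trerf1 lie below 0 without KO replicate 5.

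KO replicate 5 held the highest value of the 10 samples for 6 of the 7 coding-like genes and for 11 of the other 62 (17.7%), where it did so for 21.0% of all tested genes. It held the lowest value for 0 of the 7 and for 15 of the 62 (24.2%), where it did so for 23.8% of all tested genes. The other 62 were thus near the share of all tested genes in both directions. In the same library Malat1 and Neat1, nuclear RNAs, summed to 960 FPKM against 58.6 to 82.0 in the other 9. The whole list of fibroblast or mesenchyme RNAs (Dnm3os, H19 and Meg3, 3 of 3 in the table, none at 0) summed to 16.8 FPKM against 2.19 to 6.25, and Mhrt was at its lowest. Ribosomal RNA precursor transcripts (Gm26917 and Gm42418) summed to 3931 to 4790 FPKM in KO, with 4403 in KO replicate 5, and to 2382 to 4378 in WT. The 2 went opposite ways in KO replicate 5. Gm42418 stood there at 1895 FPKM against 488 to 860 in the other 9. Gm26917 stood there at 2507 FPKM, below the other KO samples (3200 to 4013) and inside the WT range of 1656 to 3540. The part of these differences in the values of the 7 genes was not tested, and in such bulk tissue a change in the number of cells and a change in RNA per cell cannot be told apart.

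**Figure D3:**
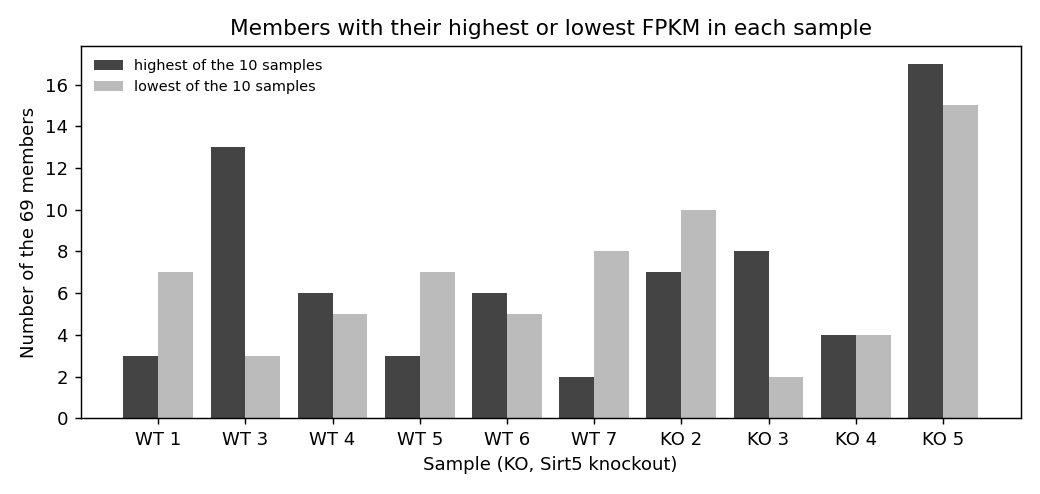
Number of the 69 genes (vertical) whose highest (dark bars) or lowest (light bars, ties left out) FPKM of the 10 samples fell in each sample (horizontal). KO replicate 5 held 17 highest values (24.6% of the 69, against 21.0% of all tested genes) and 15 lowest values (21.7%, against 23.8%).

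Ifi30 encodes a thiol reductase of lysosomes that acts in antigen processing and is induced by interferon gamma. In WT its level ran from 2.18 to 3.92 FPKM with a median of 2.63, and the KO values were 2.38, 2.74, 4.27 and 21.4 FPKM. KO replicate 5 stood far above the rest, and the other 3 KO samples lay among or near the WT values. The means were 2.76 ± 0.635 (SD, n = 6) in WT and 7.71 ± 9.20 (SD, n = 4) in KO. The log2 fold change was 0.74 (SE 0.449, limma adjusted p = 0.576), and 0.12 without KO replicate 5. None of the 5 macrophage marker genes looked for was in the table, so the level of such cells could not be set beside it.

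All of the FPKM of Ifi30 stood in one transcript model. Ifi30-201, of 980 bases and 8 exons, is the model that skips the base printed above, and it was listed at 0 in all 10 samples. Ifi30-202, of 981 bases and 7 exons, holds that base, shares the other 980 bases and carried the whole level. The models differ by 1 base, so the table says which model was given the fragments and not which protein the RNA could give.

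The genes whose log2(FPKM + 1) followed Ifi30 most closely over the 10 samples were Snhg1 (Pearson r = 0.976, Spearman rho = 0.952), the assembled locus MSTRG.16394 (r = 0.969, rho = 0.685) and Malat1 (r = 0.945, rho = -0.018). Without KO replicate 5 the Pearson values were 0.879, 0.556 and -0.13. The values for Malat1 and MSTRG.16394 rested on that library, where MSTRG.16394 stood at 16.7 FPKM against 0.0365 to 0.293 in the other 9. These values are given as descriptions of samples that share it.

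Tmem134, a transmembrane protein gene, was the most highly expressed of the 69, at 24.2 FPKM and about 776 fragments per sample. In WT it ran from 19.8 to 25.4 FPKM with a median of 22.8, and the KO values were 25.5, 25.8, 26.7 and 27.0 FPKM. Every KO sample was above every WT sample, by a margin that is small beside the spread within WT. In FPKM as listed, it was the 1 gene of the 69 whose genotypes did not overlap, where 3.21% of all tested did not. In the direction of higher KO values the background was 1.07%, and in the other, with 0 of the 69, it was 2.14%. The means were 22.8 ± 1.99 (SD, n = 6) and 26.3 ± 0.738 (SD, n = 4), with a log2 fold change of 0.20 (SE 0.202). Over the 23 alternatives the log2 fold change ran from 0.032 to 0.72. The separation depends on the scaling. With a common sum per sample, WT replicate 6, with the lowest sum (6392 FPKM), lies above every KO sample. Limma gave an adjusted p of 0.725. A two-sided exact permutation test over samples (210 arrangements) gave p = 0.0143, which became 0.281 after Benjamini-Hochberg adjustment over all tested genes.

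The transcripts of Tmem134 divided the samples in another way. Tmem134-212, with the gapped model, and Tmem134-215, whose models differ by 49 bases, together made up 40.8% to 54.5% of the gene's FPKM in the 6 WT samples. In KO the share was 16.2%, 12.9%, 50.7% and 11.3% in replicates 2, 3, 4 and 5. KO replicates 2, 3 and 5 thus lay below every WT sample, and KO replicate 4 lay inside the WT range. Tmem134-206, Tmem134-208 and Tmem134-209 together made up 34.6% to 45.8% in WT and 70.8%, 72.9%, 36.4% and 69.5% in the same 4 KO samples. The 2 sets were not fixed in advance and follow no shared annotation type, so the split of samples is a description of transcripts grouped by their values. Tmem134-216, also gapped, was in neither set, at 2.43% to 5.34% in WT and 3.79% to 6.77% in KO. The gene's sum in the 4 KO samples ran from 25.5 to 27.0 FPKM.

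Fitted per transcript, the log2 fold change was -0.85 for Tmem134-212 and -0.74 for Tmem134-215, each with a limma adjusted p of 0.390. It was 0.81 for Tmem134-206, a retained-intron model, with a limma adjusted p of 0.204, and the gapped Tmem134-216 was at 0.36 (limma adjusted p = 0.390). Over 43 transcripts of the 69 genes that reached a mean of 1 FPKM, limma called 0 at an adjusted p below 0.05, where 0.177% of 1131 tested transcripts were called. At an unadjusted p below 0.05, 9 of the 43 passed, 6 of them from Tmem134, where 11.2% of all tested transcripts did. Transcripts of one gene share their fragments, so the 6 are not separate observations.

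**Figure D4:**
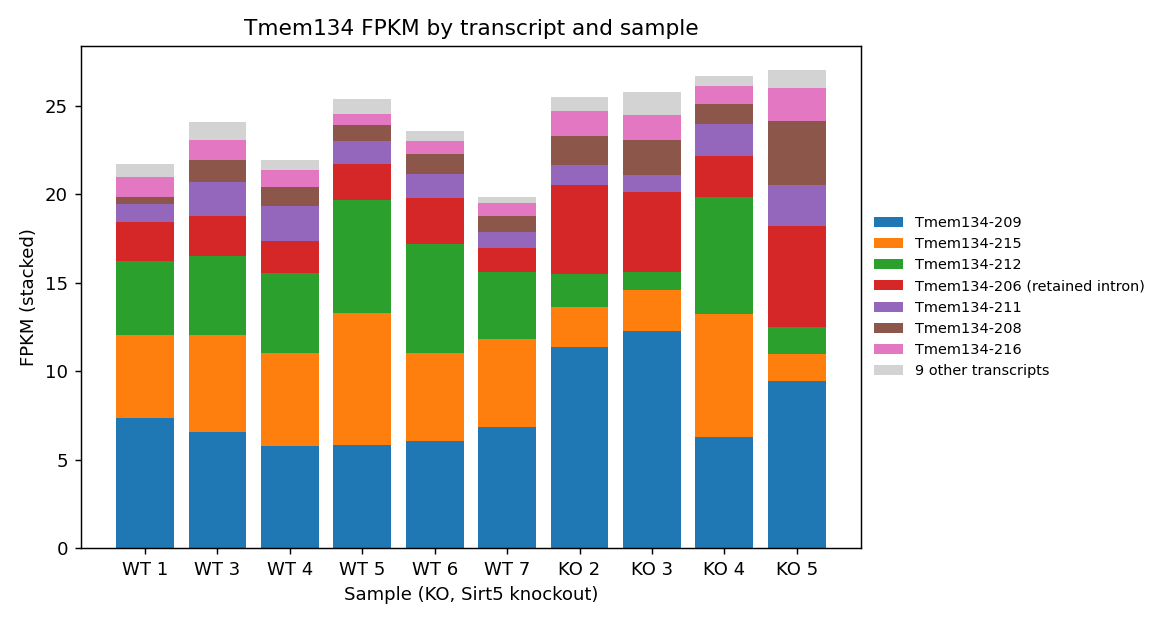
FPKM of Tmem134 by transcript, stacked (vertical), in each of the 10 samples (horizontal); the grey segment sums the transcripts below the 7 highest. The height of the stack runs from 19.8 to 27.0 FPKM, and the orange and green segments (Tmem134-215 and Tmem134-212) are thin in KO replicates 2, 3 and 5.

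Ptpmt1 encodes a phosphatase of the inner mitochondrial membrane that makes phosphatidylglycerol for cardiolipin. Its WT values ran from 3.63 to 8.17 FPKM with a median of 4.69, and its KO values were 3.38, 6.35, 2.56 and 10.6 FPKM. KO samples lay on both sides of the WT range. The log2 fold change was 0.027 (SE 0.319, limma adjusted p = 0.979) with all samples and -0.29 without KO replicate 5. Its gapped model, Ptpmt1-201, held 15.6% to 38.0% of the gene's FPKM.

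Zswim6, a zinc finger gene known from human skeletal and brain development, ran from 1.08 to 2.74 FPKM in WT with a median of 2.00, and stood at 2.63, 2.24, 2.34 and 3.50 FPKM in KO. The groups overlapped, and KO exceeded WT by 0.27 on the log2(FPKM + 1) scale (SE 0.173, limma adjusted p = 0.595), and by 0.17 without KO replicate 5. Here the gapped model, Zswim6-201 with 15 exons, took most of the fragments, with a mean share of 71.5% over the 10 samples. In WT replicate 4 its share was 0%, and Zswim6-204, which differs from it by 149 bases, was at 0.538 FPKM in that sample against 0 to 0.218 in the other 9.

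Tctn2 encodes a protein of the transition zone of the primary cilium. In WT it ran from 1.08 to 1.54 FPKM with a median of 1.20, and the KO values were 1.30, 1.78, 1.52 and 2.31 FPKM. The KO samples lay in the upper part of the WT range or above it. On the log2(FPKM + 1) scale KO exceeded WT by 0.27 (SE 0.115, limma adjusted p = 0.404), and by 0.17 without KO replicate 5. The gapped Tctn2-201 and its neighbour Tctn2-207, which again differ by 1 base, had FPKM equal to 3 digits in 3 samples, while Tctn2-201 was listed at 0 in 5 others.

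Spata5l1 ran from 1.07 to 2.32 FPKM in WT with a median of 1.49, and stood at 1.92, 2.54, 1.91 and 2.32 FPKM in KO. The KO samples were above 5 of the 6 WT samples, and WT replicate 1 lay among them. KO exceeded WT by 0.33 on the log2(FPKM + 1) scale (SE 0.132, limma adjusted p = 0.404), and by 0.30 without KO replicate 5. KO replicate 3, not replicate 5, held the highest value.

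Trerf1, which encodes a zinc finger regulator of transcription known from steroid hormone synthesis in human cells, ran from 0.779 to 1.49 FPKM in WT with a median of 1.35. Its KO values were 0.729, 1.12, 1.15 and 3.08 FPKM. Only KO replicate 5 lay above the WT range. The log2 fold change was 0.077 (SE 0.211, limma adjusted p = 0.926), and -0.18 without that library. The gapped Trerf1-201 was listed at 0 in 7 samples, and a retained-intron model, Trerf1-206, held 36.6% of the gene's level. The 3 models with the longest frames, Trerf1-201, Trerf1-204 and Trerf1-205, together held a mean share of 44.2% over the samples (27.2% to 80.6%). Trerf1-204, without a gap and with 1113 codons, had a mean of 0.400 FPKM.

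**Figure D5:**
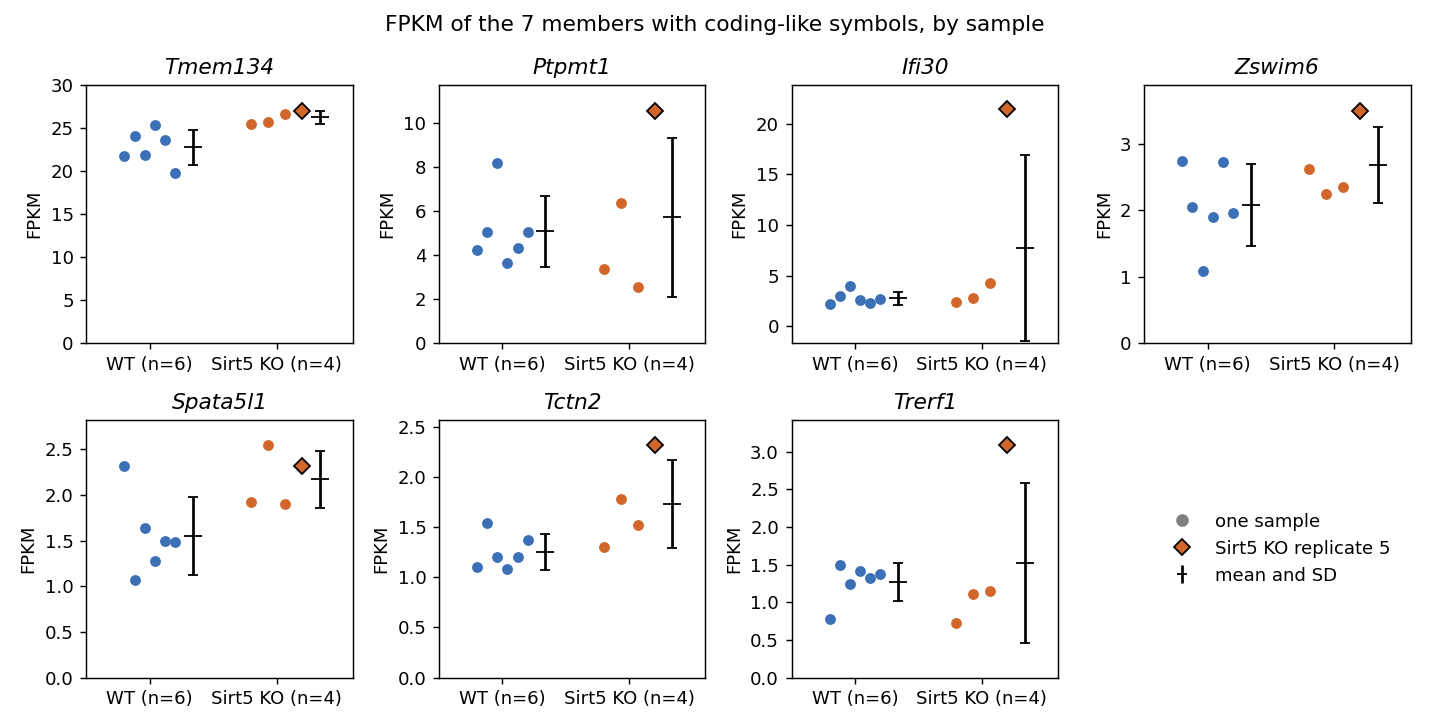
FPKM (vertical) of the 7 genes with coding-like symbols in 6 WT (blue) and 4 Sirt5 KO samples (orange), each panel on its own scale, with mean and SD; the diamond is KO replicate 5. The diamond is the highest point in every panel but that of Spata5l1, and Tmem134 is the panel in which the groups do not overlap.

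Among the other 62 genes, the smallest unadjusted p belonged to Gm43305 (chr14:54292443-54297456). Its WT values ran from 0 to 0.849 FPKM with a median of 0.487, and its KO values were 0.757, 1.46, 1.70 and 3.46 FPKM. KO replicate 2 lay inside the WT range and the other 3 KO samples above it. The means were 0.474 ± 0.291 (SD, n = 6) and 1.84 ± 1.15 (SD, n = 4), which put KO above WT by 0.89 on the log2(FPKM + 1) scale (SE 0.275, limma adjusted p = 0.282), and by 0.65 without KO replicate 5. It entered the group through its KO level, since its WT mean was under 1 FPKM. All of its level stood in Gm43305-201, a single-exon model of retained-intron type with 4901 bases. The long frame of that model was not compared with known proteins or repeat elements. It was also not checked if the fragments of Gm43305 match other places in the genome, so its genotype values may not belong to this locus alone.

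6530402F18Rik, which overlaps Ntng2 on the same strand, ran from 1.74 to 3.96 FPKM in WT with a median of 1.97. Its KO values were 3.86, 2.88, 3.13 and 3.38 FPKM, above 5 of the 6 WT samples. Its log2 fold change was 0.40 (SE 0.169, limma adjusted p = 0.404). It was as large without KO replicate 5, at 0.39. It is one of the 3 genes with other symbols that had a gapped model, and in all 3 that model was listed at 0 in the 10 samples.

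Gm9899, opposite the potassium channel gene Kcnk3, was the one gene of the 69 lower in KO at an unadjusted p below 0.05. Its WT values ran from 1.20 to 2.60 FPKM with a median of 1.64, and its KO values were 0.859, 1.87, 1.12 and 0.0600 FPKM. KO replicate 3 lay inside the WT range. Its log2 fold change was -0.54 (SE 0.240, limma adjusted p = 0.424), and -0.27 without KO replicate 5. A730017L22Rik and AC120164.1 came next, each at -0.36 with an adjusted p of 0.507 by limma, and both had overlapping genotypes. Without KO replicate 5 they stood at -0.47 and -0.16.

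The highest means among the other 62 covered steady genes and genes set by 1 or 2 libraries. 2210408F21Rik, with 15 transcripts, was the steadiest of the 69, from 10.6 to 13.1 FPKM in WT with a median of 11.7 and at 11.8, 10.4, 10.7 and 11.6 FPKM in KO, a coefficient of variation of 7.04%. 3110039I08Rik, with 48 transcripts, ran from 3.05 to 8.52 FPKM in WT with a median of 5.08 and from 5.20 to 7.28 in KO. E130119H09Rik ran from 2.59 to 3.97 FPKM in WT with a median of 3.73 and from 2.29 to 4.03 in KO. The genotypes overlapped in all 3 genes.

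Firre, on chromosome X, ran from 2.96 to 4.43 FPKM in WT with a median of 3.48, and stood at 2.10, 4.22, 3.97 and 8.27 FPKM in KO. KO replicate 5 was the highest and KO replicate 2 the lowest of the 10 samples. The log2 fold change was 0.21 (SE 0.250, limma adjusted p = 0.777), and -0.068 without KO replicate 5. 2410006H16Rik showed the same top sample, with KO values of 1.53, 2.66, 6.04 and 6.77 FPKM against 1.58 to 4.10 in WT (median 2.56).

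AI506816, the gene with the longest frame outside the coding-like symbols, ran from 0.861 to 4.84 FPKM in WT with a median of 3.66. It stood at 0.368, 4.47, 3.98 and 4.43 FPKM in KO. KO replicate 2 and WT replicate 7 were low and the other 8 samples lay between 2.96 and 4.84. The transcript with the frame, AI506816-205, was listed at 0 in KO replicate 2 and at 0.705 FPKM in WT replicate 7.

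Gm49708 reached the threshold through few libraries. It stood at 162 FPKM in WT replicate 3, 3.65 in WT replicate 6 and 4.41 in KO replicate 2, and was listed at 0 in the other 7. In WT replicate 3, 157.6 FPKM stood in Gm49708-201, a single-exon retained-intron model of 918 bases. Gm28037, whose exons lie wholly within those of Rpl24 and Zbtb11 on the same strand, stood at 15.8 FPKM in WT replicate 1 and 22.2 in KO replicate 5 and was listed at 0 in the other 8. Reads of those coding genes may not have been told apart from it. Gm26621 ran from 0.304 to 4.69 FPKM in WT with a median of 0.852 and stood at 0, 0.429, 0 and 0.812 FPKM in KO, with its highest sample 9.60 times its median sample.

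The remaining named non-coding RNAs are given for their names rather than by the rule for the genes above. Zfas1, which lies opposite Znfx1, ran from 1.39 to 2.17 FPKM in WT with a median of 1.94, and stood at 1.10, 2.49, 1.28 and 4.14 FPKM in KO. Its highest sample was KO replicate 5 again, and its log2 fold change was 0.096 (SE 0.226) with that library and -0.16 without it. Crnde, a long non-coding RNA near Irx5, ran from 0.920 to 3.40 FPKM in WT with a median of 1.91 and from 1.90 to 2.84 in KO. Dleu2, the host gene of the microRNAs miR-15a and miR-16-1, ran from 0.980 to 2.12 FPKM in WT with a median of 1.17 and from 1.18 to 1.74 in KO. The genotypes overlapped in all 3.

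The last 42 genes, all with Rik, Gm or accession names, had means from 1.02 to 3.20 FPKM. Their log2 fold changes lay between -0.36 (E330011O21Rik) and 0.46 (Gm44597), with 24 above 0 and 18 below, and the smallest limma adjusted p among them was 0.527 (D330023K18Rik). KO replicate 5 moved these values. Without it E330011O21Rik stood at -0.029 and Gm44597 at 0.72, and D330023K18Rik went from 0.36 to 0.58 with a limma adjusted p of 0.177. D330023K18Rik stood at 2.05, 1.89, 1.54 and 0.537 FPKM in KO against 0.625 to 1.27 in WT. KO replicates 2, 3 and 4 lay above every WT sample and KO replicate 5 below. These 3 genes were chosen after their values were seen. D330023K18Rik entered the group through its KO level, since its WT mean was 0.904 FPKM, under the threshold of 1 FPKM. Its adjusted p of 0.177 also came from leaving out the KO sample that lay below WT, so no conclusion is drawn from that value. KO replicate 5 was the highest sample for 6 of the 42.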

How the data were processed

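The deposited table holds FPKM per transcript for 10 samples, which the authors computed with StringTie 1.2.0 after mapping to GRCm38 with HISAT2 (version not given in the sources used here), per the series' design text and the submitters' processing notes. HTSeq 0.6.1 is also named there, and its counts were not used here. The libraries were made so that the second cDNA strand is digested, per the labels' protocols. Use of that strand by StringTie, and the rule that chose the transcripts, are stated in no source used here. The design text names different ribosomal RNA removal kits and instruments without assigning them to samples. StringTie shares fragments between overlapping transcripts by estimation, so values per transcript are less certain than sums per gene.

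Transcript FPKM were summed per gene of GENCODE M21, and 16 genes that shared a symbol with a higher one were set aside. Genes and loci with a mean of at least 1 FPKM (1122) were tested with limma 3.58.1 in R 4.3.3 on log2(FPKM + 1), with an intensity trend and genotype as the only term, two-sided, with Benjamini-Hochberg adjustment over all tested. On this scale the change of low genes is understated. Depth was estimated from the step of 1 fragment in low values. Frames were read from ATG to stop in the GENCODE transcript sequences, with codons counted without the stop. RefSeq types were matched by symbol, which found 54 of the 69 genes. Annotation used pandas 2.3.3 in Python 3.11.15. On simulated data with known changes the fit was tested first.

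The genes named are those with coding-like symbols, the 8 highest of the rest, those whose genotypes did not overlap, the 3 smallest p in each direction, the 3 with the highest ratio of top to median sample and the 3 on each side of the threshold. The members and lists were chosen with earlier results of these data known. Symbols counted as coding-like unless they had a clone, Gm, accession, host-gene or known non-coding form. The comparison of gapped models and the pooling of Tmem134 transcripts were added after the tables were seen. No label states separate animals for the samples, and the p-values then measure only their spread, which may be technical. Sham animals, which the design text mentions, were not analysed here.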

Additional observations from a re-analysis of the deposited data

Results flagged for a closer look

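Of 56 sets of values examined (WT or KO values of a named gene or of a main Tmem134 transcript), 15 had a sample far from the others by Dixon's criterion. Chance gives about 1 in 20 independent sets, but the 15 cannot be set against it, since Gm49708 and Gm28037 were named for an outlying sample and the Tmem134 transcripts share fragments. Among coding-like genes these were Ptpmt1 in WT replicate 4 at 8.17 FPKM (others 3.63 to 5.04), Ifi30 in KO replicate 5 at 21.4 FPKM (others 2.38 to 4.27) and Trerf1 in WT replicate 1 at 0.779 FPKM (others 1.24 to 1.49). Tmem134-212 stood at 6.59 FPKM in KO replicate 4 (others 1.02 to 1.86). Tmem134-215 stood at 6.96 FPKM in KO replicate 4 (others 1.53 to 2.30) and at 7.43 in WT replicate 5 (others 4.65 to 5.47).

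Among the other genes, Gm49708 stood at 162 FPKM in WT replicate 3 (others 0 to 3.65) and at 4.41 in KO replicate 2 (others listed at 0). Gm28037 stood at 15.8 FPKM in WT replicate 1 and at 22.2 in KO replicate 5, with the remaining samples of each genotype listed at 0. AI506816 stood at 0.368 FPKM in KO replicate 2 (others 3.98 to 4.47) and Gm45338 at 0.519 FPKM in the same sample (others 1.24 to 1.36). 6530402F18Rik stood at 3.96 FPKM (others 1.74 to 2.42) and AA465934 at 2.06 FPKM (others 0.384 to 0.982), both in WT replicate 3. E130119H09Rik stood at 2.59 FPKM in WT replicate 6 (others 3.45 to 3.97).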

How the results depend on the processing

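None of the 69 genes was called by limma or by the exact permutation test in the 23 alternatives run per gene. In the fit per transcript, 0 of their 43 transcripts were called. With 210 arrangements the permutation test cannot give a p below 0.00476. After adjustment over 1122 genes and loci it could call one only if many reached that floor, so its lack of calls says little. The smallest limma adjusted p of any of the 69 genes over the alternatives was 0.121. At an unadjusted p below 0.05, 5 of them passed in the reported limma fit, 1 without WT replicate 5, 2 without WT replicate 6, 7 with quantile normalization or array weights and 4 or 5 in the other alternatives without the block. Over all tested genes and loci, 2 were called, against 4 with a pseudocount of 0.5 or with quantile normalization, 1 with a minimum of 0.1 FPKM or without the intensity trend, 0 without a minimum or by exact permutation, 7 with a common sum, 5 with robust moderation and 8 with array weights, and 1 to 3 leaving out each sample in turn. With a common sum the median log2 fold change was 0.15 in the coding-like genes and -0.049 in the other 62. Leaving out each sample gave medians of 0.17 to 0.30 and 0.011 to 0.069. A threshold of 0.5 FPKM gave 118 genes, and one of 2 FPKM gave 21, of which 4 had coding-like symbols.

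Replicate numbers 3, 4 and 5 occur in both genotypes. The correlations of their deviations were -0.16, 0.18 and 0.081. The samples of number 4 were each other's closest match across genotypes, and those of numbers 3 and 5 were not. So few values cannot tell whether samples with the same number share more than that number. With the replicate block over these 6 samples 0 genes were called, and 0 over the same samples without the block. At an unadjusted p below 0.05, 2 of the 69 passed with the block and 5 without it. AI506816 was at 0.061 in both fits.

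Of 24 named genes, 18 kept the direction of their fold change under all 23 alternatives. Not all of these could change it. The settings for the minimum level, the intensity trend, robust moderation and the permutation test leave the fold change as in the reported fit. The fits with and without the replicate block share one value. Array weights gave -0.14 for Gm28037, -0.11 for Ptpmt1 and -0.10 for Trerf1. A common sum gave -0.12 for Ptpmt1 and -0.020 for Trerf1. Leaving out each sample gave -0.29 to 0.28 for Ptpmt1, -0.18 to 0.23 for Trerf1, -0.34 to 0.38 for AI506816, -0.068 to 0.46 for Firre, -0.68 to 1.13 for Gm28037 and -1.59 to 0.17 for Gm49708. The cause was not tested.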
